A study of Mus musculus with 34 samples.

Results

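Bone-marrow-derived macrophages of the mouse were compared at 180 min and at 45 min of treatment with LPS at 100 ng/ml together with IL-10 at 10 ng/ml. LPS (lipopolysaccharide) is a cell wall component of Gram-negative bacteria, and IL-10 is an anti-inflammatory cytokine. The comparison took every array titled with both agents at these times: 12 of the 34 arrays of the series, 6 at each time. The cells were wild type or lacked Il10 (IL-10-/-) or Il6 (IL-6-/-), with 2 arrays per genotype and time that the titles call biological replicates. By their titles all 12 arrays carry both agents, so that a fall or rise described is one over time under that treatment. Cells had been grown for 7 days in mCSF (CSF-1), per the labels. The labels do not give the strain, sex or age of the mice, nor whether replicates came from separate animals, so the p-values speak only of array-to-array spread, which may be technical. Arrays with LPS alone (8 in wild type and IL-10-/-) and 4 arrays of resting cells are used below for comparison. The resting cells have no genotype in the labels and were grown in L-cell conditioned medium.

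The labels of these arrays disagree in places. The titles of all 12 name IL-10, whereas the treatment field names it on 2 arrays and gives LPS alone on the other 10, and the description field speaks of embryos. The titles were followed. The signal of Selp, the P-selectin gene, lay between 946.5 and 1280.0 in the 6 arrays at 45 min, against group means of 32 and 17.55 with LPS alone in wild type and IL-10-/-. At 180 min it lay between 7232.8 and 12629.8, against 1648 and 35.15. Selp was chosen with earlier results of these data known, so these values are no independent check of the titles. All 14 macrophage markers examined were measured. Their summed signal ran from 194157.6 to 233932.1 at 45 min and from 186215.6 to 213204.3 at 180 min. Lyz2 (lysozyme) lay between 29434.5 and 38310.6 over the 12 arrays, Csf1r (the CSF-1 receptor) between 14213.6 and 24538.4 and Adgre1 (F4/80) between 3674.4 and 8967.5. Correlations of log2 signal between arrays of 1 group ran from 0.934 to 0.96. Every array correlated more with each array of its own time (0.915 or more) than with any array of the other time (0.878 or less), and none stood apart.

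LPS is sensed by Toll-like receptor 4. Its adaptor proteins activate NF-kappaB, MAP kinases and interferon regulatory factors. Transcription then proceeds in waves: immediate early genes such as Fos and Egr1 need no new protein and are shut off quickly, and later genes depend on chromatin opening, new transcription factors or secreted interferon. IL-10 acts on the same cells through a receptor that uses JAK1, TYK2 and the transcription factor STAT3. STAT3 raises genes that restrain cytokine production, among them Socs3, which blocks signalling from the IL-6 receptor but not from the IL-10 receptor. Macrophages are known for making their own IL-10 after LPS.

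The targeted genes gave signal in their own knockouts. Where the probes lie relative to the altered parts of Il6 and Il10 is not given in the sources used here, so these values do not check the genotypes. Il6 gave 2678.9 and 2126.0 in wild type at 45 min and 2233.7 and 995.5 at 180 min. In the arrays labelled IL-10-/- it gave 4505.7 and 3648.2, then 4019.1 and 3761.8, and in those labelled IL-6-/- 8400.2 and 6947.4, then 427.5 and 440.3. The pooled fall of 1.57 ± 0.47 (adjusted p = 0.0165) came with overlapping arrays and was -0.36 and not called in wild type and IL-10-/- alone (adjusted p = 0.283). The difference of the change between IL-6-/- and wild type was -3.33 ± 0.75 and was not called (adjusted p = 0.337). Il10 gave 2419.0 and 2699.3 in wild type, then 4409.0 and 4512.1, and 1637.7 and 1614.4 in IL-6-/-, then 2692.8 and 2822.0. In IL-10-/- it went from 10596.0 and 8396.2 to 4633.7 and 4698.2. The pooled change of 0.18 ± 0.23 was not called (adjusted p = 0.614), and in wild type and IL-6-/- alone Il10 rose by 0.77 (adjusted p = 0.000389). The difference between IL-10-/- and wild type, -1.80 ± 0.36, was not called (adjusted p = 0.208).

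The arrays separated by time in a large part of the transcriptome. Of 8224 probe sets tested, 2873 (34.9%) were called between 45 and 180 min at an adjusted p under 0.05 (limma, genotype as a block): 1133 higher (13.8%) and 1740 lower (21.2%). Quantile normalization called 1224 higher and 1648 lower. A change of at least 2-fold was called for 836 probe sets (10.2%), 398 higher and 438 lower. The 6 arrays at 180 min did not overlap the 6 at 45 min for 729 of these and for 1581 of all 8224 tested (19.2%); a call at this fold favours such separation. The sign was the same in all 3 genotypes for 2840 of the 2873 called (98.9%) and for 4813 of all tested (58.5%); the calls rest on the same 12 arrays, so the first share is a description. Counted with 1 probe set a gene, 835 of 6070 genes were called higher (13.8%) and 1404 lower (23.1%), and the median log2 change of all genes was -0.048. Log2 values are of signal plus 50, so folds of genes near background at either time are understated.

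**Figure D1:**
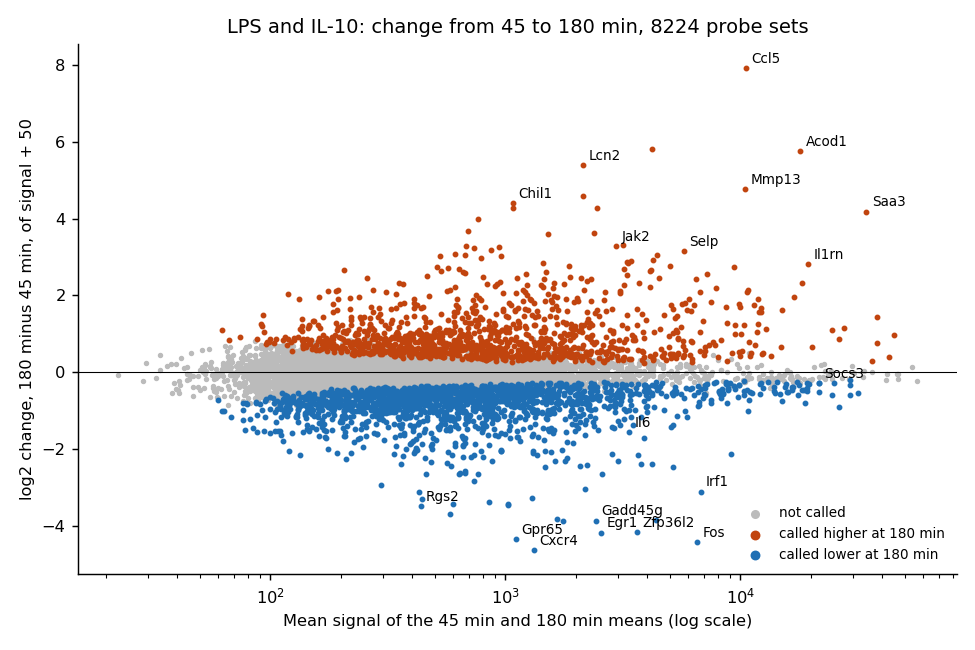
Log2 change from 45 to 180 min of LPS and IL-10 (y axis) against the mean signal (x axis, log scale) for the 8224 probe sets tested, with the 1133 called higher in orange and the 1740 called lower in blue. Rises reach higher than falls: Ccl5 at 7.92 stands above all other genes, and the lowest named point is Cxcr4 at -4.63.

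The largest rises were those of Ccl5, Acod1, Lcn2 and Mmp13. Ccl5, a chemokine that draws T cells and monocytes, gave signals of 23.3 (lowest), 25.7 (median) and 113.4 (highest) at 45 min and 16059.9, 21608 and 24966.4 at 180 min. All 6 late arrays lay far above all 6 early ones, and the log2 change was 7.92 ± 0.16 (SE; adjusted p = 3.04e-14, n = 6 against 6). Acod1 encodes the enzyme that makes itaconate from cis-aconitate. Its signal went from 270.6, 718.55 and 1066.9 to 32125.1, 35224 and 39501.7, a change of 5.75 ± 0.17 (adjusted p = 1.35e-12). The lowest early values of Acod1 were those of wild type (270.6 and 408.3), and no late array overlapped an early one. Lcn2, which encodes an iron-siderophore-binding protein, rose from 29.6, 49.0 and 77.3 to 2869.6, 3901.9 and 6291.0 (5.39 ± 0.15). Mmp13, a collagenase gene, rose from 459.0, 653.55 and 1131.8 to 13736.1, 20834 and 27676.9 (4.77 ± 0.13). The arrays of the earlier and later time did not overlap for either gene.

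The other 8 of the 12 largest rises were Cp (ceruloplasmin, a copper-carrying ferroxidase; log2 change 4.59), Chil1 (a chitinase-like protein; 4.41), Traf1 (an adaptor of TNF receptors; 4.29), Ptges (prostaglandin E synthase; 4.27), Saa3 (serum amyloid A 3; 4.18), Fpr2 (a formyl peptide receptor; 3.99), Rcl1 (a protein of ribosomal RNA processing; 3.61) and Gbp2 (an interferon-induced GTPase; 3.33). For Saa3 the early signals were already 3068.5 to 4491.7, and the late ones reached 54856.5 to 75260.9. Fpr2 went from 12 to 79.9 at 45 min to 868.9 to 2329.0 at 180 min. The size of the changes that start or end near background depends on the added constant. With 10 or 200 added in place of 50, Ccl5 changed by 8.90 or 6.46, Chil1 by 6.0 or 2.88 and Fpr2 by 4.87 or 2.72.

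The largest falls were those of Cxcr4, Fos, Gpr65 and Egr1. Cxcr4, the receptor of CXCL12 that holds leukocytes in the marrow, gave 1554.9 (lowest), 2663.4 (median) and 3621.0 (highest) at 45 min and 10.2, 57.55 and 105.8 at 180 min. It fell by 4.63 ± 0.21 (adjusted p = 1.6e-10), and no late array came near the early ones. Fos, a subunit of the AP-1 transcription factor, gave 11431.5, 12043 and 14860.6 early and 434.9, 484.9 and 756.6 late. It fell by 4.43 ± 0.12 (adjusted p = 7.71e-13), and the late signals were below the resting mean of 1112. Gpr65, a receptor that senses protons, fell by 4.35, and Egr1, a zinc finger immediate early factor, by 4.18 (from 3737.2 to 5946.3 down to 54.9 to 426.9). Zfp36l2, an mRNA decay factor, went from 6252.2 to 8457.7 at 45 min to 273.7 to 437.6 at 180 min.

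Among the 12 largest falls stood further regulators: Apobec1 (a cytidine deaminase; -3.87), Gadd45g (a stress-response gene; -3.86), Cytip (a cytohesin-binding scaffold; -3.85), Lyl1 (a blood cell transcription factor; -3.82), Rgs2 (an inhibitor of G-protein signalling; -3.49), Sesn1 (a sestrin; -3.44) and Blnk (an adaptor of SYK signalling; -3.43). Cytip ranged from 5022.5 to 12616.6 at 45 min, highest in IL-10-/- (10591.0 and 12616.6) and lowest in IL-6-/- (5022.5 and 5339.8), and reached 376.3 to 658.9 in all 3 genotypes. The added constant matters here too: with 10 or 200, Cxcr4 changed by -5.42 or -3.40, Gpr65 by -5.09 or -3.16, Rgs2 by -4.58 or -2.16 and Sesn1 by -4.11 or -2.35.

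**Figure D2:**
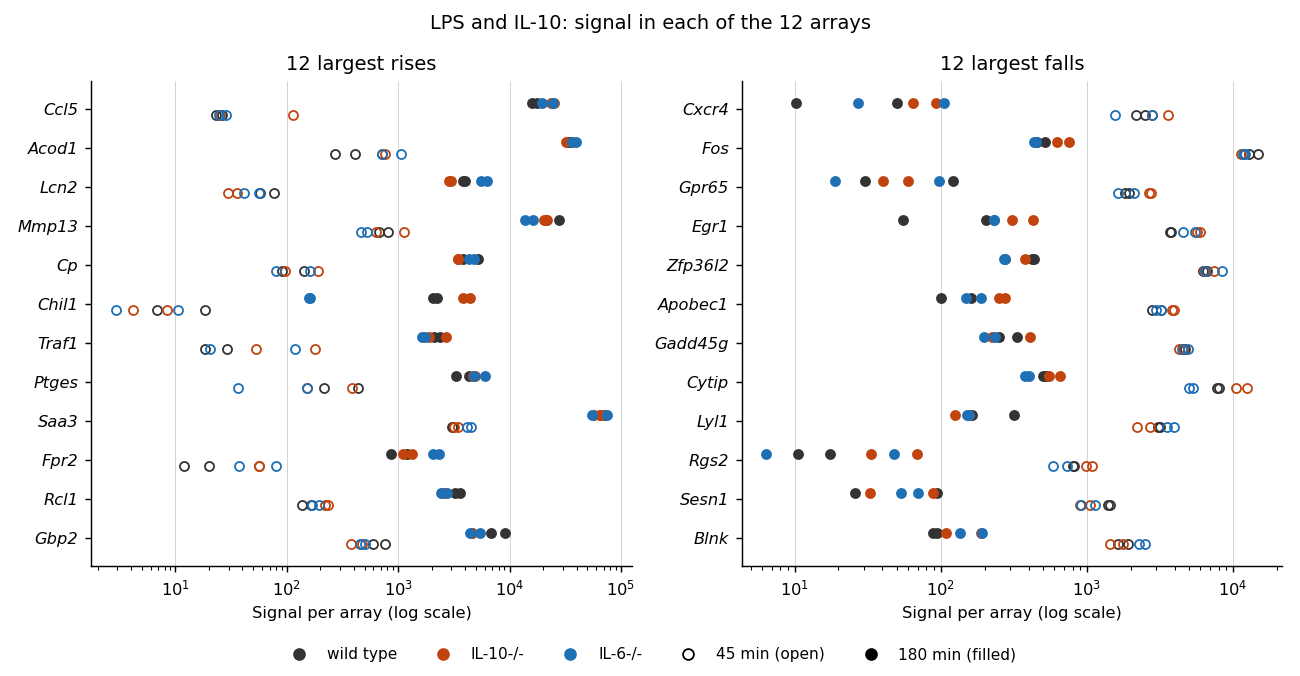
Signal in each of the 12 arrays (x axis, log scale) for the genes with the 12 largest rises (left) and the 12 largest falls (right), open circles at 45 min and filled circles at 180 min, coloured by genotype. The genes were chosen among those with separate arrays at the 2 times in each genotype and a higher mean of at least 500, so the gap between filled and open circles restates that choice; Chil1 has its lowest late values in IL-6-/- (158.8 and 161.8).

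The level in resting cells separates kinds of fall, as a description. Of the 438 probe sets that fell at least 2-fold, 50 had stood at least 2-fold over resting at 45 min, and 40 of these were within 2-fold of resting at 180 min. A larger group of 362 was within 2-fold of resting at 45 min, and 279 of them lay at least 2-fold under resting at 180 min. Fos, Egr1 and Gadd45g belong to the first kind: their resting means were 1112, 441.9 and 246.8. Zfp36l2, Lyl1 and Apobec1, with resting means of 6836, 4979 and 4828, show the other. Of the 398 that rose at least 2-fold, 75 were already at least 2-fold over resting at 45 min and 332 were so at 180 min. The same arrays picked these probe sets and placed them in the classes, so the choice itself favours some counts. A probe set near resting at 45 min that falls at least 2-fold is pushed under resting, and a rise likewise over it. The classes were not counted over all probe sets tested. Resting cells differed in their CSF-1 source and have no genotype in the labels, and the part of this in the classes was not tested.

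Promoter sequences are shown for 6 named genes, picked from those whose window holds a searched motif, so a match in each follows from that choice. They are 3 of the largest rises, Fos among the falls, and Ifit3 and Dusp1, whose course differed from that with LPS alone (below). Each is the 300 bases from 250 before to 50 after the first start listed by RefSeq in GRCm38.p6, written 5′ to 3′ on the gene's strand. Acod1 lies at chr14:103046762-103047061 (plus strand), Mmp13 at chr9:7272264-7272563 (plus), Gbp2 at chr3:142620413-142620712 (plus), Fos at chr12:85473640-85473939 (plus), Ifit3 at chr19:34583279-34583578 (plus) and Dusp1 at chr17:26508423-26508722 (minus). Capitals mark letters that match a searched motif on either strand: TGACGTCA (the cAMP response element), TGANTCA (AP-1), the CArG box bound by SRF, GGANTTTCC (kappaB), TTCNNNGAA and TTCCNGGAA (STAT; the first includes the second), GAAANNGAA (interferon-stimulated response element) and TATAAA.
Acod1: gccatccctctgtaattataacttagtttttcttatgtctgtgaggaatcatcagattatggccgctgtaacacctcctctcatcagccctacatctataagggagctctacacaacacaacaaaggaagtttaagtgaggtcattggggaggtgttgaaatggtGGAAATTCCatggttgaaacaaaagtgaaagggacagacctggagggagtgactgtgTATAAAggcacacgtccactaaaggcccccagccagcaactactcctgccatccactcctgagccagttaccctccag
Mmp13: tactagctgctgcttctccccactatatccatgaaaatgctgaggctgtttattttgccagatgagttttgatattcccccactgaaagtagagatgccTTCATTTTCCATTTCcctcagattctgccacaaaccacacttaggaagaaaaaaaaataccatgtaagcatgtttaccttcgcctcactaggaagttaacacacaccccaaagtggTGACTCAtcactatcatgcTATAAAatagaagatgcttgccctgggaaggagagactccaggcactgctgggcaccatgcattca
Gbp2: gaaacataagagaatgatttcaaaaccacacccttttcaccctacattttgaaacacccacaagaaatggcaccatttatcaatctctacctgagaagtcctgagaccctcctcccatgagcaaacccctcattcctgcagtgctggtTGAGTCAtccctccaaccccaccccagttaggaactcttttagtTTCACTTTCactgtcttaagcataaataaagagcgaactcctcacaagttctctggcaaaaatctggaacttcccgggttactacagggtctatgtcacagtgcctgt
Fos: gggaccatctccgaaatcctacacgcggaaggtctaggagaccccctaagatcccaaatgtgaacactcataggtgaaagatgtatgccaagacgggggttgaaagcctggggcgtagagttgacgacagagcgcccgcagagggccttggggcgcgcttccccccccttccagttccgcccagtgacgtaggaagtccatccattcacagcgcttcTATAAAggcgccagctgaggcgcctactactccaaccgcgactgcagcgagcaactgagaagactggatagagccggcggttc
Ifit3: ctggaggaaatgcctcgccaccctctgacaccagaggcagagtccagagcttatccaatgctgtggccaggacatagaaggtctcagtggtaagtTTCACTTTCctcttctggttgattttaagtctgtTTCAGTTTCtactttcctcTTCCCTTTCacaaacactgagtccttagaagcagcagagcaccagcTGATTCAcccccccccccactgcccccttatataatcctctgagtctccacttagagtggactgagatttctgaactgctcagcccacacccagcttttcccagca
Dusp1: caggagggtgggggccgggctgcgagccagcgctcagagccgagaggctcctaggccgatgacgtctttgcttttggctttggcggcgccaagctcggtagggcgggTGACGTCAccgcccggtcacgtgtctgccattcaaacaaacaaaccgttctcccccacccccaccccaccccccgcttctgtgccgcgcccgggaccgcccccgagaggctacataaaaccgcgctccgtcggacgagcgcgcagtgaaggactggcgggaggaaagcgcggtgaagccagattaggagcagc

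Acod1 holds a kappaB match and TATAAA, Mmp13 an AP-1 match, TATAAA and a pair of overlapping GAAANNGAA matches, and Gbp2 an AP-1 and a GAAANNGAA match. Fos holds TATAAA alone of the letters searched, Ifit3 holds 3 matches to GAAANNGAA and an AP-1 match, and Dusp1 holds TGACGTCA. A match is a description of letters, not a bound site.

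A promoter was found for 4885 of the 6070 genes tested. AP-1 letters stood in 10.8% of the 249 promoters of genes called at least 2-fold higher (exact Clopper-Pearson 95% interval 7.27% to 15.4%), in 3.07% of the 293 called at least 2-fold lower (1.41% to 5.75%), in 6.02% of all tested and in 7.93% of all promoters in the table. The share among genes called lower was 6.83% when any start of a gene was counted. GAAANNGAA stood in 13.3% of the higher set (9.3% to 18.1%) and 6.48% of the lower set, against 7.08% of all tested and 8.57% of the table. For GGANTTTCC the shares were 3.21% and 1.37%, against 1.49% and 1.23%. TGACGTCA went the other way, with 2.41% of the higher and 4.1% of the lower set, against 3.03% and 1.88%. TTCNNNGAA stood in 10.8% and 7.17%, against 6.92% and 8.47%, and in 4.42% of the lower set when only genes with 1 start were counted. TATAAA stood in 12.4% and 8.53%, against 8.93% and 14.2%. The CArG box (2.01% and 1.37%, against 1.49% and 1.57%) and TTCCNGGAA (2.01% and 1.37%, against 1.17% and 1.15%) were rare in every set. The median ratio of observed to expected CpG was 0.695 in the higher set, 0.767 in the lower set and 0.762 in all tested. No test was made of these shares.

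The gene lists below were all chosen with earlier results of these data known, so none is independent evidence of a direction. Immediate early genes fell as a group. Of 42 members tested, 29 were called lower, 3 higher and 10 were not called, with a median log2 change of -0.82, where 23.1% of all genes were called lower. Beside Fos, Egr1 and Zfp36l2, the serum- and glucocorticoid-induced kinase gene Sgk1 fell from 3139.0 to 5249.9 down to 350.4 to 583.9 (-3.04 ± 0.14). Zfp36l2, unlike Fos and Egr1, had stood near its resting level at 45 min, as described above. Of 11 MAP kinase phosphatase and Gadd45 genes, which limit or relay stress kinase signalling, 6 fell and 3 rose. Gadd45g gave 4264.8, 4568.9 and 4929.5 at 45 min and 199.3, 243.9 and 412.2 at 180 min, around its resting mean of 246.8. Dusp8 fell by 1.17 and was not called in wild type and IL-6-/- alone (-0.95, adjusted p = 0.0563). Dusp16, a phosphatase that acts on JNK and p38, rose from 251.8, 453.25 and 753.0 to 2736.6, 3222.7 and 3770.3 (2.76 ± 0.17), and Ptprj, a receptor tyrosine phosphatase gene, by 2.03. Dusp1 fell by 0.56 from a high level, and its arrays overlapped (14440.8 to 20081.3 early, 9352.2 to 15550.0 late).

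NF-kappaB components and feedback genes went up. Of 29 tested, 20 rose, 1 fell and 8 were not called (median 0.63, against 13.8% of all genes called higher). After Traf1 (18.4, 41.05 and 177.9 early; 1651.0, 2005.8 and 2704.9 late) came Tnip1, a partner of the A20 deubiquitinase, with 1101.3 to 1406.8 at 45 min and 7807.9 to 9540.5 at 180 min (2.77 ± 0.09). Ikbke, an IkappaB kinase relative of the interferon pathway, rose by 2.39 and Peli1, a ubiquitin ligase of Toll-like receptor signalling, by 2.29. Bcl3, an atypical IkappaB protein, rose by 0.57 ± 0.17 (adjusted p = 0.015). Without wild type its change was 0.45 and was not called (adjusted p = 0.073).

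Cytokine and chemokine genes are read against the 13.8% of all genes called higher and the 23.1% called lower. Of 21 cytokine genes 10 rose, 4 fell and 7 were not called (median 0.45), and of 20 chemokine genes 9 rose, 2 fell and 9 were not called (median 0.42). Il12b, whose product p40 is shared by IL-12 and IL-23, went from 23.2, 68.85 and 158.4 to 598.8, 947.7 and 1435.9 (3.02 ± 0.26). Il1a rose by 2.43, Il15 by 2.31 and Ebi3, a subunit of IL-27, by 1.65. Il1b was high at both times: 14071.5 to 21033.3 early and 34502.2 to 41462.9 late, with no overlap (1.14 ± 0.09). Tnf overlapped between times (6410.2, 11819 and 13114.1, then 11830.3, 13954 and 16775.1) and rose by 0.48 ± 0.12 (adjusted p = 0.00625). Both of the lowest early values (6410.2 and 6781.9) were from wild type, and without wild type Tnf changed by 0.23 and was not called (adjusted p = 0.0975). Among chemokines, Cxcl5, a neutrophil attractant, rose by 2.71, Ccl3 by 2.32, Ccl4 by 1.63 and Cxcl1 by 0.53.

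Genes of inflammatory enzymes, adhesion and costimulation held the largest share of rises: 27 of 37 (73.0%, against 13.8% of all genes). With 4 falls (10.8%, against 23.1%) and 6 not called, their median was 1.77 beside -0.048 for all genes. Selp went from 946.5, 1132.8 and 1280.0 to 7232.8, 10691 and 12629.8 (3.15 ± 0.10). Among 25 chemokine and other leukocyte receptors 8 rose and 10 fell. Fpr2 and P2ry2, a nucleotide receptor (38.9 to 225.7 early, 947.1 to 1472.2 late; 3.28), rose, while Cxcr4 and the prostaglandin E2 receptor gene Ptger4 (2663.4 to 4418.8 early, 498.8 to 746.2 late; -2.44) fell. The list of arginine, nitric oxide and polyamine genes had 6 of 14 higher (42.9%), 2 lower (14.3%) and 6 not called. Its pooled median was -0.065, opposite in sign to most calls, but the medians within wild type, IL-10-/- and IL-6-/- were 0.027, 0.07 and 0.092. Arg2, mitochondrial arginase, rose by 2.85, Nos2, inducible nitric oxide synthase, by 2.74 and the arginine transporter Slc7a2 by 2.29, while Sat1, which acetylates polyamines for breakdown, fell by 1.71.

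Genes tied to IL-10 and STAT3 did not move together. Of 37 tested, 19 rose (51.4%, against 13.8% of all genes), 12 fell (32.4%, against 23.1%) and 6 were not called (median 0.45). This list, like the others, was written with earlier results of these data known and is no independent evidence of a direction. Il1rn, the antagonist of the IL-1 receptor, rose from 3225.8, 5144.4 and 6885.2 to 31637.2, 33958 and 37013.3 (2.81 ± 0.13), Msr1, a scavenger receptor, by 2.88, and Il4ra, the IL-4 receptor alpha chain, from 4575.8, 6135.9 and 7253.2 to 16150.4, 19140 and 19554.4 (1.68 ± 0.10). Stat3 itself rose by 1.04 ± 0.09, from 2249.8 to 2682.7 up to 4502.4 to 6454.4. Socs3 was near its later level by 45 min: 22045.7, 23645 and 25019.4 early against 17171.4, 18393 and 23999.8 late. Its fall of 0.28 ± 0.09 (adjusted p = 0.0177) was not called without IL-6-/- replicate 1 at 180 min (adjusted p = 0.051) without IL-10-/- (0.142) or without an intensity trend (0.0726). Nfil3, a bZIP repressor, fell from 1131.3, 1750.7 and 2221.3 to 485.7, 532.35 and 600.9 (-1.52 ± 0.15), and the arrays of the 2 times did not overlap.

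Of 40 genes of cytokine receptors, JAKs, STATs and SOCS proteins 15 rose, 6 fell and 19 were not called (median 0.17). The share that rose lay above the 13.8% of all genes called higher. The share that fell lay below the 23.1% of all genes called lower. Jak2, a kinase of many cytokine receptors, changed most, from 392.6, 524.15 and 646.5 to 4299.8, 5226.5 and 6477.0 (3.28 ± 0.13), followed by Stat5a (2.12) and Ptpn1, a tyrosine phosphatase that acts on JAK2 (1.70). Interferon response genes rose in 23 of 44 cases (52.3%, against 13.8% of all genes), with 4 falls (9.09%, against 23.1%) and 17 not called (median 0.52). Usp18, which removes ISG15 from proteins, went from 35.0 to 258.0 up to 919.5 to 1617.8 (2.97), and Gbp3 rose by 2.90. Irf1, an interferon regulatory factor, went the other way: 10875.4, 12000 and 13161.8 at 45 min and 1028.9, 1418.3 and 1825.7 at 180 min, a fall of 3.11 ± 0.11 with wide separation of the arrays.

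**Figure D3:**
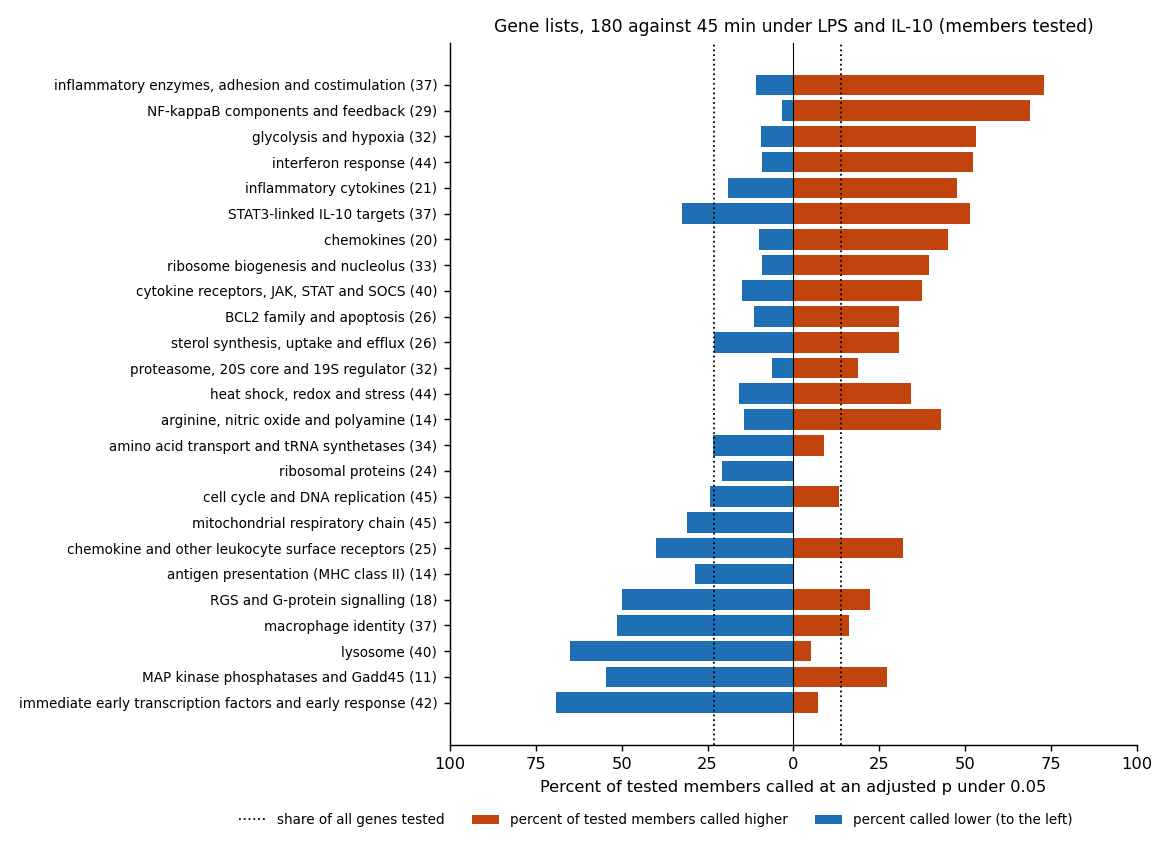
Percent of the tested members of each gene list called higher (to the right, orange) or lower (to the left, blue) at 180 min against 45 min of LPS and IL-10; the number tested is in brackets, and dotted lines mark the 13.8% and 23.1% of all genes. Inflammatory enzymes and NF-kappaB genes reach farthest to the right, immediate early and lysosomal genes farthest to the left.

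Lists of the cell's upkeep are read against the 13.8% of all genes called higher and the 23.1% called lower. Of 40 lysosomal genes 26 fell and 2 rose (median -0.41), among them Lipa, the lysosomal acid lipase gene (-1.29), Npc1, a cholesterol exporter of the lysosome (-1.20), and Atp6v1c1, a proton pump subunit (-1.14). Of 45 respiratory chain genes 14 fell, none rose by the limma test and 31 were not called (median -0.23), led by Ndufv2 (-0.88), Ndufs3 (-0.79) and Sdhb (-0.77). Of 24 ribosomal protein genes 5 fell (20.8%, below the share of all genes) and 19 were not called, while 13 of 33 ribosome biogenesis genes rose and 3 fell, with Rcl1, Rrs1 (2.02) and Nop56 (1.69) in front. Glycolysis and hypoxia genes rose in 17 of 32 cases with 3 falls (median 0.56): the glucose transporter gene Slc2a1 went from 434.3 to 664.5 up to 2089.7 to 3246.7 (2.18), Adm, a vasodilator peptide gene, rose by 2.13, and Mxi1, a MYC antagonist, fell by 2.06. Of 26 sterol genes 8 rose and 6 fell, with the synthesis genes Hmgcs1 (2.09) and Idi1 (1.88) rising and Npc1 and Dhcr7 (-1.16) falling.

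Macrophage identity genes fell in 19 of 37 cases (51.4%, against 23.1% of all genes), with a median of -0.34. They rose in 6 (16.2%, near the 13.8% of all genes). Cebpa, a myeloid transcription factor gene, fell by 1.49 and Mertk, a receptor for apoptotic cells, by 1.48, while Msr1 and Fcgr2b, the inhibitory Fc receptor gene (1966.8 to 3244.4 early, 14451.0 to 20741.2 late; 2.75), rose. Of the 14 macrophage markers 3 rose (Spi1, Cd14 and Msr1), 7 fell and 4 were not called. In bulk RNA, fewer cells of a type and less RNA per cell cannot be told apart. Of 14 MHC class II pathway genes 4 fell (28.6%, near the 23.1% of all genes) and 10 were not called (median -0.30). Ifi30, a lysosomal thiol reductase gene, fell by 0.70 and H2-DMa, which loads peptides, by 0.61; without wild type H2-DMa was not called (-0.55, adjusted p = 0.0524). H2-Aa (-0.35) and H2-Eb1 (-0.33, adjusted p = 0.0482) encode class II chains. H2-Aa was not called in any pair of genotypes (adjusted p = 0.075 to 0.104). H2-Eb1 was not called without wild type (0.294) or without IL-6-/- (0.168). It also lost its call with quantile normalization (0.0872), no trend (0.071), no filter on dim probe sets (0.0606) or a replicate block (0.0558). By means of all 16 groups neither gene was called (0.383 and 0.204). H2-Aa was also not called without wild type replicate 2 at 45 min (adjusted p = 0.0566) or IL-6-/- replicate 1 at 180 min (0.0611). H2-Eb1 was not called on leaving out any 1 of 9 of the 12 arrays (all but IL-6-/- replicate 1 at 45 min and IL-10-/- replicate 2 at 45 and at 180 min; adjusted p = 0.0801 to 0.115).

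Other lists were mixed. Of 44 heat shock, redox and stress genes 15 rose and 7 fell, with Sod2, the mitochondrial superoxide dismutase gene, up by 2.21 and Ppp1r15a, which reverses the block of translation, down by 2.30. Of 45 cell cycle genes 6 rose (13.3%), 11 fell (24.4%) and 28 were not called, both near the shares of all genes (13.8% and 23.1%). Mki67, a proliferation marker, rose by 2.23 and Ccnd2, a cyclin, by 2.08, while Cdk1, the mitotic kinase gene, fell by 1.48. Apoptosis genes rose in 8 of 26 cases and fell in 3, led by Fas, a death receptor gene (1.98). Of 18 RGS and G-protein genes 9 fell and 4 rose, of 34 amino acid transport and tRNA synthetase genes 8 fell (23.5%, near that of all genes) and 3 rose (8.82%), and of 32 proteasome genes 6 rose (18.8%) and 2 fell (6.25%), Psma6 by most (1.81).

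Markers of other cell types were examined in the same arrays, beside 13.8% of all genes called higher and 23.1% lower. Of 10 neutrophil markers tested, Lcn2 and S100a8 (88.9 to 189.1 early, 927.3 to 3022.3 late; 3.27) rose and 8 were not called. Their summed signal was 1820.5 to 3530.6 at 45 min and 6602.8 to 11492.3 at 180 min. S100a9 (10.7 to 103.1 over the 12 arrays) and the granule genes Mpo (15.6 to 89.4) and Prtn3 (14.3 to 212.2) stayed near background at both times. Of 9 lymphocyte markers, Il7r (-2.09) and Ighm (-1.32) fell (22.2%, near the share of all genes), and the sum went from 3229.6 to 4283.5 down to 2199.9 to 2501.5. Of 18 stromal markers Timp3 alone was called (0.66), and the sums overlapped (14343.9 to 24674.9 and 15616.2 to 24880.1). Of 10 erythroid and mast cell markers 5 rose and 1 fell, led by Car2 (2.60) and Hdc, which makes histamine (2.04), with sums of 2004.3 to 3833.9 and 3926.6 to 4908.2. The list median was -0.035 in wild type, 0.704 in IL-10-/- and 1.009 in IL-6-/-. The fall was that of Epor (-0.99), which was not called in any pair of genotypes (adjusted p = 0.0764 to 0.0826) nor without replicate 1 at 45 or 180 min in wild type (0.0651 and 0.0681), replicate 2 at 45 min or 1 at 180 min in IL-6-/- (0.0749 and 0.0699), or replicate 1 at 45 min or 2 at 180 min in IL-10-/- (0.0631 and 0.0754). Klf1 (1.07) was not called without the filter on dim probe sets (adjusted p = 0.0546), without wild type replicate 2 at 45 min (0.0839), without replicate 1 at 45 min or either replicate at 180 min in IL-6-/- (0.0777, 0.058 and 0.0732), or without replicate 1 at 45 or 180 min in IL-10-/- (0.0835 and 0.0577). Klf1 was also not called in wild type and IL-10-/- alone (0.848, adjusted p = 0.238). Of 10 dendritic cell markers Fscn1 alone was called (0.74, adjusted p = 0.0185), with sums of 4095.1 to 6336.7 and 5713.7 to 7868.7. In wild type and IL-6-/- alone (0.518, adjusted p = 0.204) and in wild type and IL-10-/- alone (0.68, adjusted p = 0.114) it was not called. Fscn1 was not called without IL-6-/- replicate 1 at 45 min (adjusted p = 0.0506) or replicate 2 at 180 min (0.0531), nor without IL-10-/- replicate 1 at 45 min (0.054) or replicate 2 at 180 min (0.0519). The part of such cells in the changes of other genes was not tested.

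Within each genotype the change was read from 2 arrays against 2, with a spread shared over all 16 groups. In wild type 1252 probe sets were called (15.2%; 531 higher, 721 lower). The IL-10-/- arrays gave 1065 (12.9%; 447 and 618) and the IL-6-/- arrays 1285 (15.6%; 504 and 781), and 673 were called in the same direction in all 3. These counts depend on single arrays. In wild type the count was 821 or 760 without replicate 1 or 2 at 45 min and 825 without replicate 2 at 180 min. In IL-10-/- it was 636 without replicate 2 at 45 min and 654 or 703 without replicate 1 or 2 at 180 min. In IL-6-/- it was 817 without replicate 1 at 45 min and 784 without replicate 2 at 180 min.

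The difference of the change between genotypes was called for 1 probe set in each pair of genotypes (0.0122% each), by limma; at an unadjusted p under 0.05 there were 406 for IL-10-/- against wild type, 349 for IL-6-/- against wild type and 217 for IL-10-/- against IL-6-/-. At 45 min Chil1 gave 18.6 and 6.9 in wild type, 8.4 and 4.2 without Il10 and 2.9 and 10.6 without Il6. At 180 min it reached 2242.4 and 2039.4 in wild type and 4429.3 and 3808.0 in IL-10-/-, but 161.8 and 158.8 in IL-6-/-. The change in IL-6-/- was smaller by 3.24 ± 0.49 than in wild type (adjusted p = 0.00786) and the change in IL-10-/- larger by 4.31 than in IL-6-/- (adjusted p = 6.07e-05). Leaving out wild type replicate 2 at 45 min, either wild type replicate at 180 min or IL-6-/- replicate 2 at 180 min ended the first call (adjusted p = 0.0928, 0.0978, 0.0735 and 0.0733). Adding 10 in place of 50 ended both (adjusted p = 0.802 and 0.25).

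Ifi202b, an interferon-inducible gene of the DNA-sensing p200 family, rose in wild type from 847.4 and 657.4 to 7975.6 and 5686.1 and gave 1112.5 and 841.7, then 2712.9 and 1946.7, in IL-6-/-. In IL-10-/- it stayed near background at both times (4.2 and 2.8, then 47.0 and 7.5). The difference from wild type was -2.61 ± 0.43 (adjusted p = 0.0253). It was not called with 10 added in place of 50 (adjusted p = 0.921), nor without wild type replicate 1 at 45 min (0.0722), replicate 2 at 45 min (0.395), replicate 1 at 180 min (0.111), IL-10-/- replicate 1 at 45 min (0.197), replicate 2 at 45 min (0.0817) or replicate 2 at 180 min (0.529). Genes of this family are alike in sequence, and hybridisation of their transcripts cannot be told apart here.

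**Figure D4:**
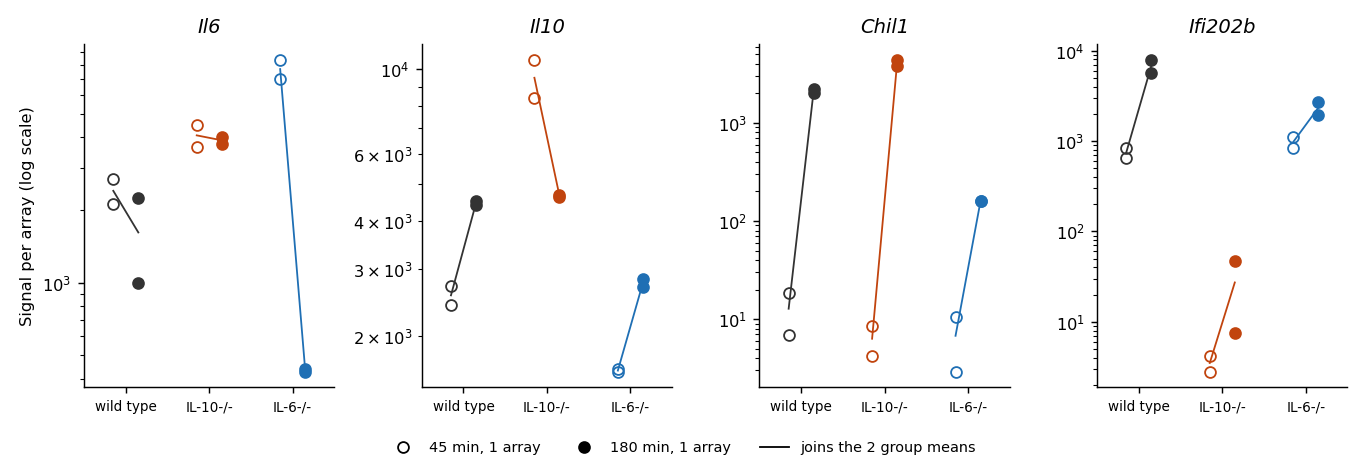
Signal (y axis, log scale, a separate range in each panel) of Il6, Il10, Chil1 and Ifi202b in each array with LPS and IL-10, by genotype, open at 45 min and filled at 180 min; lines join the group means. Il6 drops in IL-6-/- alone by a wide margin (8400.2 and 6947.4 to 427.5 and 440.3), Il10 drops in IL-10-/- only, Chil1 rises least in IL-6-/-, and Ifi202b lies lowest in IL-10-/-.

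The course with IL-10 was set against the course with LPS alone in wild type and IL-10-/- (8 arrays against 8), which share no array. As the mean of both genotypes the change differed for 86 probe sets (1.05%), 46 higher and 40 lower with IL-10. In wild type alone 12 differed (0.146%), and in IL-10-/- alone 94 (1.14%). The count of 86 was 57 without LPS replicate 2 at 45 min in wild type and 57 without IL-10 replicate 1 at 45 min in wild type. In wild type alone it was 7 without LPS replicate 1 at 180 min and 6 without IL-10 replicate 1 at 45 min. In IL-10-/- alone it was 51 without LPS replicate 2 at 45 min or LPS replicate 1 at 180 min, 62 and 56 without IL-10 replicate 1 or 2 at 45 min, and 48 and 57 without IL-10 replicate 1 or 2 at 180 min.

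Genes whose change was lower with IL-10 included some that stood higher at 45 min and some that stood lower at 180 min. Gadd45g had group means of 4642 and 4416 at 45 min with IL-10 in wild type and IL-10-/-, against 410.2 and 462.5 with LPS alone, and 193.0 to 376.7 at 180 min in all 4 groups. Its change differed by -3.15 ± 0.31 (adjusted p = 8.68e-07). Irf1 also stood higher with IL-10 at 45 min, at 11430 and 12460 against 5977 and 5964 with LPS alone. Unlike Gadd45g, it then stood lower with IL-10 at 180 min, at 1418 and 1680 against 3459 and 4835 (-2.37 ± 0.20). For Il6 the group means with IL-10 were 2402 and 4077 at 45 min and 1615 and 3890 at 180 min, whereas with LPS alone they were 215.8 and 180.4, then 3606 and 24170 (-5.58 ± 0.53, adjusted p = 5.47e-07). Cav1, which encodes caveolin-1 of the plasma membrane, stood at 164.6 to 219.4 at 45 min in all 4 groups and reached 268.4 and 317.6 with IL-10 against 1663 and 7688 with LPS alone (-3.24 ± 0.25, adjusted p = 1.98e-08). Cxcl10, an interferon-linked chemokine, rose less (-2.98 ± 0.39), from a higher start with IL-10 (1746 and 2939 against 327.8 and 489.9). Ifit3 and Mx1, antiviral genes, differed by -2.76 and -2.41 (adjusted p = 0.0301 and 0.0156). The call of Ifit3 was lost on leaving out any 1 of 15 of the 16 arrays (all but LPS replicate 2 at 180 min in wild type; adjusted p = 0.0507 to 0.104), and that of Mx1 without wild type IL-10 replicate 1 at 45 min (adjusted p = 0.0645).

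Among genes higher with IL-10, Dusp1, a phosphatase that ends MAP kinase signals, had means of 14790 and 18850 at 45 min and 10410 and 14920 at 180 min, against 22030 and 24900, then 8139 and 1287, with LPS alone (2.41 ± 0.26, adjusted p = 4.25e-06). Bcl6, a transcriptional repressor gene, rose to 3088 and 2787 with IL-10 and ended at 2275 and 307.7 with LPS alone (2.55 ± 0.34). Gab1, a docking protein of receptor kinases, ended at 1251 and 1086 against 672.0 and 41.55 (2.46 ± 0.24). Chil1 (2.34), Cp (2.17) and Glipr2 (2.07) also differed. For these 6 genes the low late value with LPS alone was that of IL-10-/-: the difference of the change was 3.89 in IL-10-/- and 0.92 in wild type for Dusp1, and 4.31 and 0.38 for Chil1, with the wild type values not called (adjusted p = 0.896 and 1). Whether those differences themselves differ between the genotypes was not tested. In wild type the calls higher with IL-10 were Acod1 (2.14), Ifrd1 (1.99), Sgk1 (1.62) and Phlda1 (1.59). The call of Acod1 was lost without LPS replicate 2 at 45 min (adjusted p = 0.0592), LPS replicate 1 at 180 min (0.0551) or IL-10 replicate 2 at 45 min (0.0923). That of Ifrd1 was lost without LPS replicate 2 at 180 min (0.0798) or IL-10 replicate 1 at 45 min (0.0735), and that of Phlda1 without the latter array (0.0693) or with 10 added (0.24). All 4 had lower 45 min means with IL-10 than with LPS alone, such as 339.5 against 1566 for Acod1 and 3689 against 10470 for Sgk1. Il4ra and Map3k8, the kinase TPL2, were lower in wild type (-1.38 and -2.66): both began higher with IL-10 (4631 against 1215, and 3191 against 437.4).

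**Figure D5:**
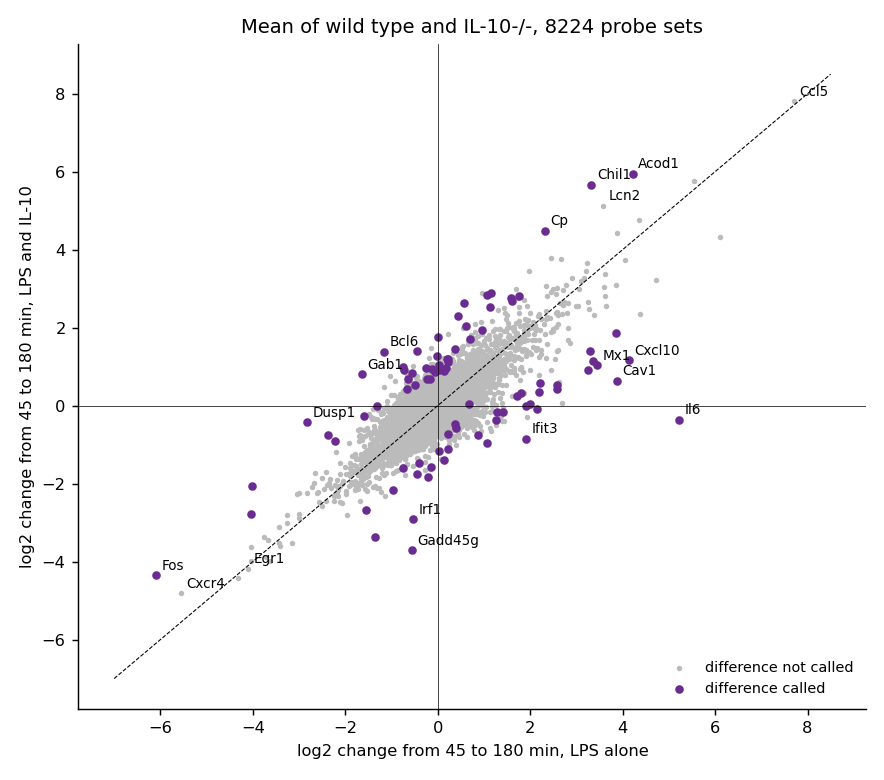
Log2 change from 45 to 180 min with LPS and IL-10 (y axis) against that with LPS alone (x axis), averaged over wild type and IL-10-/-, for 8224 probe sets; the dashed line marks equal change and purple points are the 86 whose change differed. Il6, Cav1, Cxcl10 and Gadd45g lie below the line, Dusp1, Bcl6, Cp and Chil1 above it, and Ccl5 lies close to it.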

How the data were processed

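Total RNA of cultured macrophages was measured on Affymetrix arrays of 12488 probe sets. Each probe set has 1 intensity on a linear scale, deposited by the authors and called signal here. MAS5 made it, per the submitters' processing notes; its version is not given in the sources used here. The 2% trimmed mean of each array lay between 500.29 and 500.4, and no further scaling was applied. Detection calls and scan dates were not used here.

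Of 34 arrays 32 entered a group by title. 2 did not: 1 title lacks a genotype, and on 1 array the title and treatment field disagree on the time. The 66 control probe sets were left out, and a probe set was tested if 2 or more of the 32 arrays reached a signal of 200. This left 8224 probe sets for 6070 genes, and the brightest on average stood for its gene. Symbols came from a platform table in which 10855 probe sets carry 1 symbol and 396 several, with 1237 not listed. They were updated through the RefSeq table of GRCm38.p6. No named gene had another probe set called in the opposite direction.

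Limma 3.58.1 in R 4.3.3 was run on log2 of signal plus 50, with eBayes and an intensity trend. The fit of the time change had genotype and time on the 12 arrays (8 residual degrees of freedom). Contrasts within or between genotypes and against LPS alone came from means of all 16 groups (16 residual degrees of freedom). P-values are 2-sided and adjusted by Benjamini-Hochberg over all probe sets tested. A call means an adjusted p under 0.05, and ± is the standard error. The fits were tested on simulated data.

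The gene lists and the genes to name were chosen with earlier results of these data known. Genes were named by rule: the 12 largest called rises and falls whose arrays did not overlap in any genotype and whose higher mean was at least 500, up to 4 called members of each list, the 6 largest called differences each way, and 16 genes throughout (Il10, Il6, Tnf, Il1b, Il12b, Socs3, Bcl3, Stat3, Il1rn, Il4ra, Nfil3, Fos, Egr1, Cxcl1, Selp, Cav1). Lists share members. Alternatives were other added constants, filters, quantile normalization, no trend, a replicate block, pairs of genotypes, and each array left out.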

Additional observations from a re-analysis of the deposited data

Results flagged for a closer look

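Dixon's criterion at 95% marks about 1 in 20 groups of like arrays by chance. Here the 6 arrays at 1 time hold 3 genotypes and the genes share arrays, so that rate is only a rough guide. In 19 of 274 cases the highest or lowest of the 6 arrays at 1 time stood apart from the other 5 by this criterion. At 45 min these were Ccl5 in IL-10-/- replicate 1 (113.4, others 23.3 to 28.2), Mertk in IL-10-/- replicate 1 (458.6), Ddit4 in IL-6-/- replicate 2 (314.4), Psmd14 in wild type replicate 2 (604.8), and Ndufv2 (1964.7) and Ndufa6 (714.6) in IL-6-/- replicate 1. At 180 min, wild type replicate 1 stood apart for Usp18 (919.5), Sod2 (7819.7) and Cdk1 (236.0), and wild type replicate 2 for Lyl1 (316.4, others 124.7 to 163.4), Ccnd2 (869.9) and Sdhb (701.1, others 1377.3 to 1560.9). IL-6-/- replicate 1 at 180 min stood apart for Il4ra (16150.4, others 18894.8 to 19554.4), Ptpn1 (10112.5), Atp6v1c1 (1566.8), Ndufv2 (1040.4) and Ifrd1 (855.0). IL-10-/- stood apart for H2-Eb1 in replicate 2 (1087.8) and Hdc in replicate 1 (289.7).

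Differences of the change were called between genotypes for Ifi202b in IL-10-/- against wild type (-2.61), and for Chil1 in IL-6-/- against wild type (-3.24) and in IL-10-/- against IL-6-/- (4.31). With IL-10 against LPS alone the change was lower for Il6 (-5.58), Cav1 (-3.24), Gadd45g (-3.15), Cxcl10 (-2.98), Ifit3 (-2.76) and Mx1 (-2.41). It was higher for Bcl6 (2.55), Gab1 (2.46), Dusp1 (2.41), Chil1 (2.34), Cp (2.17) and Glipr2 (2.07). All were tested by limma with adjustment over 8224 probe sets.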

How the results depend on the processing

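The count of 2873 stayed within 1.5 times under every alternative but the demand for a 2-fold change (836), and between 2622 and 2857 with 1 array left out. Over the 9 pairs of groups, same-numbered arrays deviated together with correlations of 0.038 to 0.299 (0.12, 0.038 and 0.198 in the 3 of the time change). Not all were over 0.1, so the numbers were not taken as a pairing, and a replicate block gave 3047. In the fit over all groups the block also fitted each resting array on its own, which took resting cells out of the estimated spread. The part of this in the following counts was not tested. With the replicate block, counts within genotypes were 2046 in wild type, 1891 in IL-10-/- and 2162 in IL-6-/-. The same block gave 23 (IL-10-/- against wild type), 6 (IL-6-/- against wild type) and 4 (IL-10-/- against IL-6-/-) between genotypes, and 257, 92 and 275 against LPS alone (mean, wild type, IL-10-/-). For the 3 pairs of genotypes in that order, adding 10 called 0, 0 and 0 (unadjusted p under 0.05 with 50 added: 406, 349 and 217) and adding 200 called 2, 3 and 3. No filter on dim probe sets called 0 for IL-10-/- against wild type, no trend 2 for IL-6-/- against wild type, quantile normalization 2 for IL-10-/- against IL-6-/-, and a fit over the 12 arrays alone 2 and 3 for these. Against LPS alone in wild type, adding 200 called 20. With 1 array left out, counts were 760 to 965, 636 to 714 and 784 to 1038 within wild type, IL-10-/- and IL-6-/-, 0 to 1, 0 to 2 and 1 to 1 between genotypes, and 57 to 82, 6 to 16 and 48 to 67 against LPS alone. Calls among list members numbered 370 to 401. AP-1 letters stood in 6.83% of lower promoters with any start, and TTCNNNGAA in 4.42% with 1 start alone. These promoter alternatives, and the lists under other settings, were chosen after seeing the data. Directions turned for Il10 (-0.132 without wild type, -0.108 without IL-6-/-) and Ccl17 (-0.086 without IL-6-/-, and from -0.053 to 0.144 with 1 array left out, lowest without IL-6-/- replicate 2 at 180 min). They turned for the medians of the arginine list (0.554 with a filter at 500, and from -0.092 to 0.011 with 1 array left out, highest without wild type replicate 2 at 45 min) and the stromal list (-0.019 with that filter, -0.008 with probe sets averaged, and from -0.033 to 0.082 with 1 array left out, lowest without IL-6-/- replicate 1 at 45 min). The cause was not tested. Of 131 named genes called, 113 kept their call throughout. Most were named for large called changes, which favours this, so the share does not speak for all 2873 calls. Dim signals limit the folds, since they depend on the added constant.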
